A study of Mus musculus with 6 samples.

Results

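Heme is built in a short chain of reactions that starts in the mitochondrion, passes through the cytosol and ends in the mitochondrion, where iron is inserted into the finished ring. The genes described here are 9: the glycine importer Slc25a38, the 2 forms of the enzyme that makes 5-aminolevulinic acid (Alas1 and Alas2), and Alad, Uros, Urod, Cpox, Ppox and Fech. They were taken by their names as members of the pathway, a rule that uses no measured value, and all 9 were found among the 54532 genes of the deposited tables. All 9 had at least 10 recovered reads in every comparison, so none was lost to the filter on low values.

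The 6 RNA-seq libraries come from cells sorted by FACS, with 1 library for each condition, so no value has a replicate and differences between mice cannot be separated from differences between conditions. Macrophages came from 4 kinds of C57BL/6 mice: WT mice, which carried no leukemia and received PBS, WT/FE mice, which received iron dextran, MA9 mice, which carried leukemia and received PBS, and MA9/FE mice, which carried leukemia and received iron dextran. Leukemia cells came from MA9 and from MA9/FE mice. MA9 cells descend from c-kit+ BM cells infected with the MSCV-MLL-AF9-GFP retrovirus, and GFP+ leukemia cells were passed to C57BL/6 recipients. Iron dextran was injected intraperitoneally on alternate days in 6 doses of 0.2 mL at 25 mg/mL, starting 1 week after the transplant, and control mice received PBS in the same volume. Mice were 6 to 8 weeks old. The sources do not say how many mice went into a library. The sample labels place the macrophages in the spleen and the leukemia cells in the BM, whereas the study's methods place the macrophages in the BM, and this conflict was not settled.

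The values are FPKM, reads scaled by the length of a gene's exons and by the depth of its library. Each FPKM multiplied by the length of the gene's exons was a whole multiple of 1 step for 96.8% to 97.01% of the values above 0, which gave the reads behind each value and a depth of 16085346 to 19518359 reads per library. The macrophage libraries held transcripts of other cells. Adgre1, the gene of the F4/80 antigen used in the sort, stood at 32.2 to 54.5 FPKM in the 4 macrophage libraries, and the B cell gene Cd79a at 415 to 802 FPKM there against 0.832 and 0.9996 FPKM in the leukemia cells. The 6 neutrophil genes summed to 1.66 and 2.59 FPKM in the WT/FE and WT macrophages, and to 879 and 1733 FPKM in the MA9/FE and MA9 macrophages. Ltf and Ly6g were at 0 in WT, and Camp and Ly6g in WT/FE. In the MA9/FE and MA9 leukemia cells the 6 neutrophil genes summed to 2083 and 2726 FPKM, above every macrophage library. The source of these transcripts in the macrophage libraries was not tested. The 5 megakaryocyte genes summed to 5.2 and 5.62 FPKM in the WT and WT/FE macrophages and to 17.3 and 12.7 FPKM in the MA9 and MA9/FE macrophages, with Gp1bb at 0 in every library. The 11 macrophage markers summed to 528 to 956 FPKM in the macrophage libraries, and to 1248 and 1598 FPKM in the leukemia cells. Lyz2 made up most of the latter sums with 1017 and 1348 FPKM. Cd68 was at 100.1 and 107 FPKM there, Csf1r at 66.6 and 70.7, Adgre1 at 28.6 and 27.5, and Cd14 at 17.8 and 24.2. Mertk was at 0.241 and 0.245 FPKM. In MA9 mice 4 of the 11 markers were higher in the leukemia cells than in the macrophages and 7 were lower. In MA9/FE mice 3 were higher and 8 lower. Hoxa9, a gene that MLL fusions keep on, was at 40.58 and 40.96 FPKM in the leukemia cells. It was at 0.119 FPKM (WT) and 0.128 (WT/FE) in macrophages without leukemia, on 13 and 12 reads. In the macrophages of leukemic mice it was at 0.791 FPKM (MA9) and 0.724 (MA9/FE), on 75 and 65 reads. The part of leukemia cell transcripts in the macrophage values was not tested. In bulk RNA, fewer cells of a type and less RNA per cell cannot be told apart.

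ALAS is the step that sets the pace of the pathway. Alas1 is the form of all cells and is held down by heme itself. Alas2 is the form of erythroid cells and supplies the large amount of heme needed for hemoglobin, and its translation is tied to iron through an iron responsive element, a hairpin in the 5′ UTR to which iron regulatory proteins bind when iron is scarce. Macrophages of the spleen and BM handle heme in the other direction as well, since they take up old red cells and break the heme down. The letters of this element were looked for because iron is the treatment of the study. In the reference transcript of Alas2 they lie at chrX:150547458-150547481 (GRCm38, plus strand), with the 6 bases of the loop in capitals.

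Alas2 iron responsive element: ttggttcgtcctCAGTGCagggca

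A C, any 5 bases and then the loop CAGTGN, the letters searched, alone are not rare. They occur in the annotated 5′ UTR of 2603 of 21181 genes (12.3%), and among the 9 genes they occur in Alas2, Uros and Fech. No test of pairing in the stem was made, so for Uros and Fech they are letters only. FPKM measures RNA and not translation, so the use of the element was not measured here.

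Erythroid genes are also known for GATA1 sites near their starts. The letters AGATAA or TGATAA, on either strand, occur within 250 bases before the start of 3 of the 8 genes with an entry in the RefSeq promoter table (Alas2, Cpox and Uros), and in 16.6% of all 32851 promoters there. A gene was counted when any of its promoters matched, while the share is of single promoters, so the units differ. Alas2 and Cpox are shown because they are the pair that passed 2-fold in MA9 macrophages, described further on. Uros, which also has the letters, was not called there, and no link between the letters and the levels was tested. The matches of Alas2 and Cpox begin 86 bases before the annotated start and are written in capitals. The windows are chrX:150547286-150547371 (plus strand) and chr16:58670077-58670162 (plus strand) of GRCm38.p6.

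Alas2: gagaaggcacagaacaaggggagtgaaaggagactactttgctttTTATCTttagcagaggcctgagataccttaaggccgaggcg
Cpox: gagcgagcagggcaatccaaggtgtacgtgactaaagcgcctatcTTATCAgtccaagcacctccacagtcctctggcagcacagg

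The CACC box CCNCNCCC, a letter pattern bound by KLF factors, was present before 5 of the 8 genes (Alad, Alas1, Alas2, Slc25a38 and Uros) and in 45.9% of all promoters. Of 3 other patterns, CCAAT was before Alad, Ppox and Urod (33.8% of all promoters), the NRF1 palindrome before Alas1 alone of the 8 (0.782%) and the maf recognition element, TGCTGA, any base and TCA, before 0 of the 8 (0.353%). Here too genes were counted over all their promoters and the shares are of single promoters. All these patterns are matches of letters and no binding was measured.

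**Figure D1:**
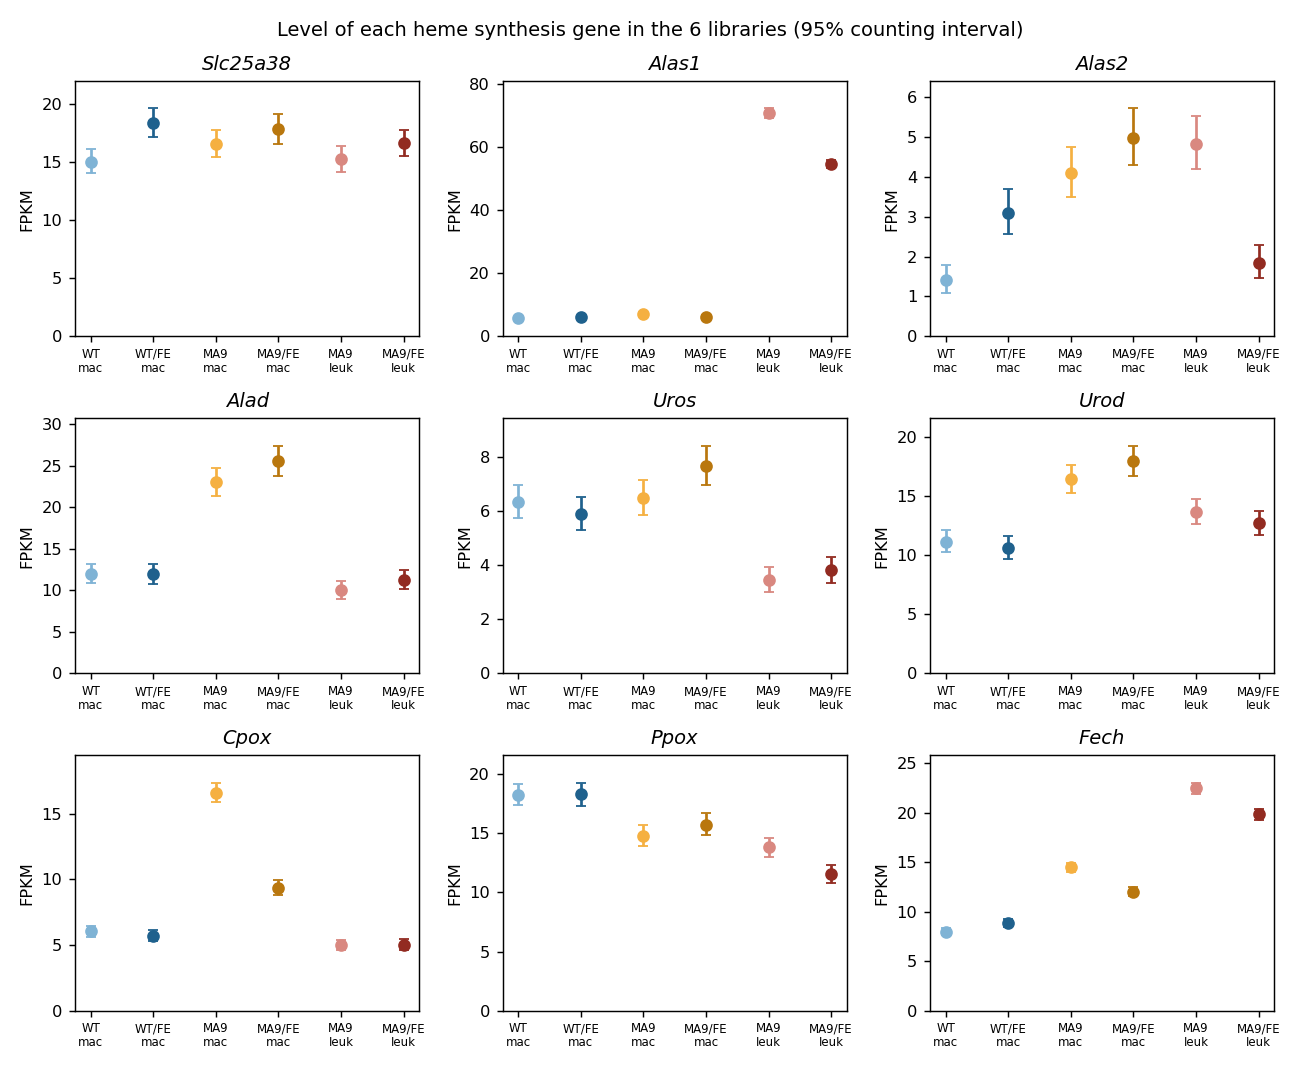
Level of each of the 9 genes in FPKM (vertical axes, each starting at 0) in the 6 libraries (horizontal axes; mac, macrophages; leuk, leukemia cells). Points are single libraries and bars are exact 95% Poisson intervals, which cover counting error only. Alas1 stands at 54.6 and 70.7 FPKM in the leukemia cells and below 7.3 FPKM in all macrophages, while Slc25a38 stays between 15.1 and 18.4 FPKM in all 6 libraries.

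Slc25a38 brings glycine into the mitochondrion, the substrate of the ALAS step. Its level was 15.1 FPKM (WT), 18.4 (WT/FE), 16.6 (MA9) and 17.9 (MA9/FE) in macrophages, and 15.3 (MA9) and 16.6 (MA9/FE) in leukemia cells. It was the steadiest of the 9, with the highest library 1.22 times the lowest, and no library differed beyond counting error from its neighbour in the order of levels.

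Alas1 (chr9:106233455-106248654, minus strand) had the widest range of the 9, with the highest library 12.4 times the lowest. It stood at 5.69 FPKM (WT), 6.06 (WT/FE), 7.22 (MA9) and 6.22 (MA9/FE) in macrophages, and at 70.7 (MA9) and 54.6 (MA9/FE) in leukemia cells. The leukemia cells were far above all macrophages, and the MA9 macrophages were above the other macrophages, while the 3 lowest libraries (MA9/FE, WT/FE and WT macrophages) differed from the next among them by no more than counting error. In the MA9 leukemia cells 95.4% of the genes detected lay below Alas1, and in the WT macrophages 52.7%.

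Alas2 (chrX:150547375-150570638, plus strand) was the lowest of the 9 in all 4 macrophage libraries. Its level was 1.41 FPKM (WT), 3.10 (WT/FE), 4.09 (MA9) and 4.97 (MA9/FE) in macrophages, and 4.84 (MA9) and 1.84 (MA9/FE) in leukemia cells. These rest on 66 to 211 reads, the fewest of the 9 genes. The 3 highest libraries (MA9/FE macrophages, MA9 leukemia cells and MA9 macrophages) differed from the next among them by no more than counting error, as did the 2 lowest (MA9/FE leukemia cells and WT macrophages). The WT/FE macrophages lay between, apart from both sets. Of the exon bases of Alas2, 12.9% are shared with Apex2 on the other strand, which was at 0.988 to 1.73 FPKM, and since the sources do not say whether strand was used in counting, reads in those bases cannot be assigned.

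Per length of exon, Alas1 exceeded Alas2 in all 6 libraries, by ratios that differed widely. In WT macrophages the ratio of the FPKM levels was 4.05 (95% counting interval 3.14 to 5.29), and it was 1.96 with iron. In MA9 macrophages it was 1.77, and 1.25 with iron (1.06 to 1.48). In the leukemia cells it was 14.6 without iron (12.8 to 16.8) and 29.6 with iron (23.7 to 37.5). The erythroid form thus made up 19.8% to 44.4% of the summed ALAS level in macrophages and 6.40% and 3.27% in the leukemia cells.

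Alad, which joins a pair of aminolevulinic acid molecules into porphobilinogen, separated the macrophages of leukemic mice from the rest. Its level was 11.97 FPKM (WT), 11.93 (WT/FE), 23.0 (MA9) and 25.6 (MA9/FE) in macrophages, and 10.01 (MA9) and 11.26 (MA9/FE) in leukemia cells. The 4 lower libraries differed from the next among them by no more than counting error.

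Uros closes the ring of 4 pyrroles, and Urod trims its side chains to give coproporphyrinogen. Uros stood at 6.33 FPKM (WT), 5.88 (WT/FE), 6.46 (MA9) and 7.67 (MA9/FE) in macrophages, and at 3.45 (MA9) and 3.81 (MA9/FE) in leukemia cells. Both leukemia libraries were the lowest, by more than counting error. Urod stood at 11.2 FPKM (WT), 10.6 (WT/FE), 16.44 (MA9) and 17.97 (MA9/FE) in macrophages, and at 13.7 (MA9) and 12.7 (MA9/FE) in leukemia cells, so that all 4 libraries of leukemic mice were above both WT libraries.

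Cpox (chr16:58670292-58717636, plus strand) and Ppox act in the mitochondrion on the last steps before iron is inserted. Cpox was at 6.03 FPKM (WT), 5.71 (WT/FE), 16.6 (MA9) and 9.38 (MA9/FE) in macrophages, and at 4.99 (MA9) and 5.02 (MA9/FE) in leukemia cells. The MA9 macrophages were the highest and the MA9/FE macrophages came next, both apart from all others. Ppox was at 18.3 FPKM (WT), 18.3 (WT/FE), 14.8 (MA9) and 15.8 (MA9/FE) in macrophages, and at 13.8 (MA9) and 11.6 (MA9/FE) in leukemia cells. It was the only one of the 9 with both WT libraries at the top. Ppox shares 17.5% of its exon bases with B4galt3 on the other strand, which was at 8.87 and 9.04 FPKM in the same WT and WT/FE libraries and at 5.16 to 6.69 FPKM in the others, so the part of B4galt3 reads in these values cannot be told apart. Smaller shares of the exon bases of Alas1 (7.53%, with 4930500F10Rik) and Cpox (3.06%, with Gpr15) are covered by genes on the other strand that were below 0.71 FPKM in every library.

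Fech inserts the iron. It was at 7.98 FPKM (WT), 8.84 (WT/FE), 14.46 (MA9) and 12.02 (MA9/FE) in macrophages, and at 22.4 (MA9) and 19.8 (MA9/FE) in leukemia cells. All 6 libraries differed from their neighbours beyond counting error, with both WT libraries lowest and both leukemia libraries highest. Its FPKM gave whole reads in the MA9/FE macrophages alone, so the reads behind the intervals of the other 5 libraries are approximate.

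The order of the genes within a library differed between the kinds of cell. In WT macrophages Ppox (18.3 FPKM), Slc25a38 (15.1) and Alad (11.97) led and Alas1 (5.69) came 8th of 9. In MA9 macrophages Alad (23.0), Cpox (16.6) and Slc25a38 (16.6) led. In both leukemia libraries Alas1 and Fech, the start and the end of the chain, led. The sum over the 9 genes was 83.9 FPKM (WT), 88.9 (WT/FE), 120 (MA9) and 117 (MA9/FE) in macrophages, and 159 (MA9) and 137 (MA9/FE) in leukemia cells, where Alas1 alone made up much of the sum.

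To ask what leukemia changed in macrophages, MA9 were compared with WT macrophages, and MA9/FE with WT/FE macrophages. A gene was called when the difference in log2(FPKM + 1) after TMM scaling (trimmed mean of M values) reached 2-fold, with at least 10 reads in either library. This is a size and not a test. Without iron, Alas2 and Cpox were called higher, 2 of 9, where 4.70% of 16926 genes were called in either direction and 3.79% were called higher. The log2 difference was 1.09 for Alas2 and 1.34 for Cpox. On the scale of the reads themselves, MA9 over WT was 2.93 for Alas2 (95% counting interval 2.19 to 3.96) and 2.78 for Cpox (2.56 to 3.02). These intervals, like all ratio intervals here, were exact and cover counting error only, not the spread between mice.

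The other 7 genes stayed under 2-fold. MA9 over WT by reads was 1.94 for Alad (1.72 to 2.19), 1.83 for Fech (1.73 to 1.93), 1.485 for Urod (1.33 to 1.66), 1.28 for Alas1 (1.15 to 1.42) and 1.11 for Slc25a38 (1.006 to 1.23). The counting interval lay above 1 for 7 of the 9 genes, where it did for 28.8% of all genes tested. It lay below 1 for Ppox alone, at 0.819 (0.758 to 0.884), where it did for 25.7% of all genes. Uros differed by less than counting error, at 1.03 (0.897 to 1.18). The median log2 difference of the 9 was 0.53, against -0.003 over all genes tested.

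With iron in both arms, Alad alone was called, 1 of 9, at a log2 difference of 1.06, where 4.57% of 16571 genes were called in either direction and 2.93% were called higher. MA9/FE over WT/FE was 2.18 for Alad (1.92 to 2.47), 1.67 for Cpox (1.51 to 1.84), 1.63 for Alas2 (1.29 to 2.06), 1.715 for Urod (1.525 to 1.93) and 1.38 for Fech (1.30 to 1.46). Ppox was again lower, at 0.873 (0.807 to 0.945), and Uros was higher here, at 1.32 (1.15 to 1.53). The intervals of Alas1, at 1.04 (0.9305 to 1.17), and of Slc25a38, at 0.986 (0.894 to 1.09), held 1. The median log2 difference of the 9 was 0.42, against 0.01 over all genes tested. All 6 neutrophil genes were called higher in both comparisons, at a median log2 difference of 7.77 without and 6.92 with iron, and their part in the values of the 9 was not tested. When a trend of the differences on exon length was removed, Alad came to 0.88 and no member was called.

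The 4 macrophage libraries were also fitted together, with leukemia and iron as additive terms and 1 residual degree of freedom. With 1 library per condition, the spread in this fit is how far the leukemia difference changed with iron, drawn by limma toward that of all genes. The prior from all genes had 5.515 degrees of freedom, so most of the variance behind SE and p came from it. This spread is not that between mice, so SE and p do not measure the latter. Alad passed, at a log2 difference of 0.99 (SE 0.17, limma with Benjamini-Hochberg adjusted p = 0.0468 over all genes), and it was higher in both pairs. It was the only one of the 9 to pass, where 363 of 16268 genes (2.23%) did. Alas2, Cpox, Urod and Fech were under an unadjusted p of 0.05 and failed the adjustment. Their limma estimates were 0.83 (SE 0.20, adjusted p = 0.111) for Alas2 and 0.998 (SE 0.217, adjusted p = 0.0856) for Cpox. The call for Alad was lost with scaling by the median of ratios (limma adjusted p = 0.0525), with a pseudocount of 0.1 (0.116) and with no minimum of reads (0.415), under which 0 of 27385 genes passed and 2878 were at an unadjusted p under 0.05.

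**Figure D2:**
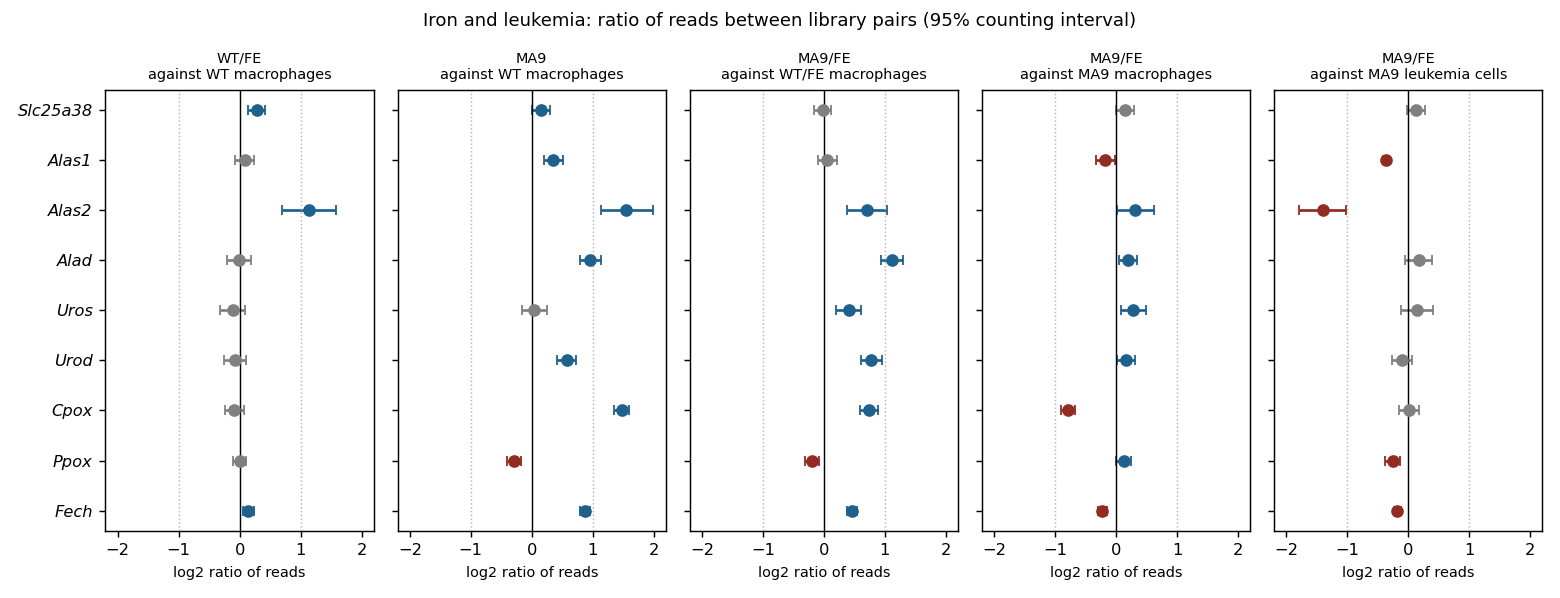
Log2 ratio of TMM-scaled reads (horizontal axes) for the 9 genes (rows) in the 5 pairs of libraries that differ in leukemia or in iron, with exact 95% counting intervals as bars and dotted lines at 2-fold. Blue marks an interval above 0, red an interval below 0 and grey an interval that holds 0. Alas2 is right of 0 in the 4 pairs of macrophages and left of 0, at a ratio of 0.381, in the leukemia cells.

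To ask what iron changed, FE libraries were compared with their PBS counterparts in 3 pairs. The MA9 and WT libraries used here are the same as in the comparison above, so the values are not independent of it. In WT macrophages 0 of 9 genes were called on the log2(FPKM + 1) scale, where 1.27% of 16754 genes were. Alas2 came nearest, at a log2 difference of 0.76. The pseudocount weighs on a gene this low, and by reads WT/FE over WT was 2.19 for Alas2 (1.613 to 2.998). By the other rule, a ratio of reads of at least 2 with a counting interval that does not hold 1, Alas2 was therefore called, 1 of 9, and 5.07% of all genes were. Slc25a38 stood at 1.21 (1.10 to 1.34) and Fech at 1.10 (1.04 to 1.17), and the intervals of the other 6 (Alad, Alas1, Cpox, Ppox, Urod and Uros) held 1, from 0.924 for Uros to 1.06 for Alas1.

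In MA9 macrophages 0 of 9 genes were called with iron, where 2.46% of 16512 genes were. Cpox was furthest from 1, with MA9/FE over MA9 at 0.579 (0.536 to 0.626) and a log2 difference of -0.73, and 3.29% of all genes tested lay below it. Fech stood at 0.853 (0.810 to 0.897) and Alas1 at 0.883 (0.793 to 0.984). Uros stood at 1.22 (1.06 to 1.40), Alad at 1.14 (1.03 to 1.26) and Alas2 at 1.25, with an interval that only just left out 1 (1.007 to 1.542). Urod stood at 1.121 (1.011 to 1.243), Ppox at 1.09 (1.004 to 1.19) and Slc25a38 at 1.10 (0.998 to 1.22).

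Markers of several cell types differed with iron in the same pairs. All 11 macrophage markers were above 0 on the log2 scale in WT and in MA9 macrophages, at a median of 0.80 and 0.82. Of them 3 and 4 were called higher, where 1.27% and 2.46% of all genes were called in either direction. In MA9 macrophages the 4 B cell genes were also above 0 with iron, at a median of 0.79, as were the 3 T cell genes, at a median of 0.85, while 5 of the 6 neutrophil genes were below 0, at a median of -0.91. In WT macrophages the B cell and T cell genes were all below 0, at a median of -0.15 and -0.20. The part of these cells in the values of the 9 genes was not tested.

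In leukemia cells Alas2 was called lower with iron, 1 of 9, at a log2 difference of -1.04, where 0.863% of 15415 genes were called in either direction and 0.428% were called lower. Only 0.396% of all genes tested lay below it. MA9/FE over MA9 was 0.381 for Alas2 (0.290 to 0.495), resting on 79 and 211 reads. Alas1 stood at 0.772 (0.746 to 0.798), Ppox at 0.837 (0.767 to 0.914) and Fech at 0.883 (0.850 to 0.918). The interval of Cpox held 1, at 1.005 (0.896 to 1.13), and those of Alad, Uros, Urod and Slc25a38 did as well.

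Over the 3 pairs together, limma with the pair as a block called 0 of 17152 genes for iron (0.00%) and 0 of the 9, with 598 genes and 0 of the 9 at an unadjusted p under 0.05. The spread in this fit is how the iron difference varied between 3 unlike pairs, not between mice. It too was drawn toward that of all genes, with a prior of 2.742 degrees of freedom. The largest limma estimate among the 9 was -0.27 for Cpox (SE 0.18, Benjamini-Hochberg adjusted p = 0.992). The estimate for Alas2 was -0.01 with an SE of 0.36, the widest of the 9, and its pairs went in opposite directions. Without the leukemia cell pair it was 0.50 (SE 0.20, limma adjusted p = 0.9997). Slc25a38 was the 1 gene with ratios above 1 in all 3 pairs (1.21, 1.10 and 1.09), at 0.16 (SE 0.09, adjusted p = 0.992), and the intervals of the latter 2 ratios held 1.

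**Figure D3:**
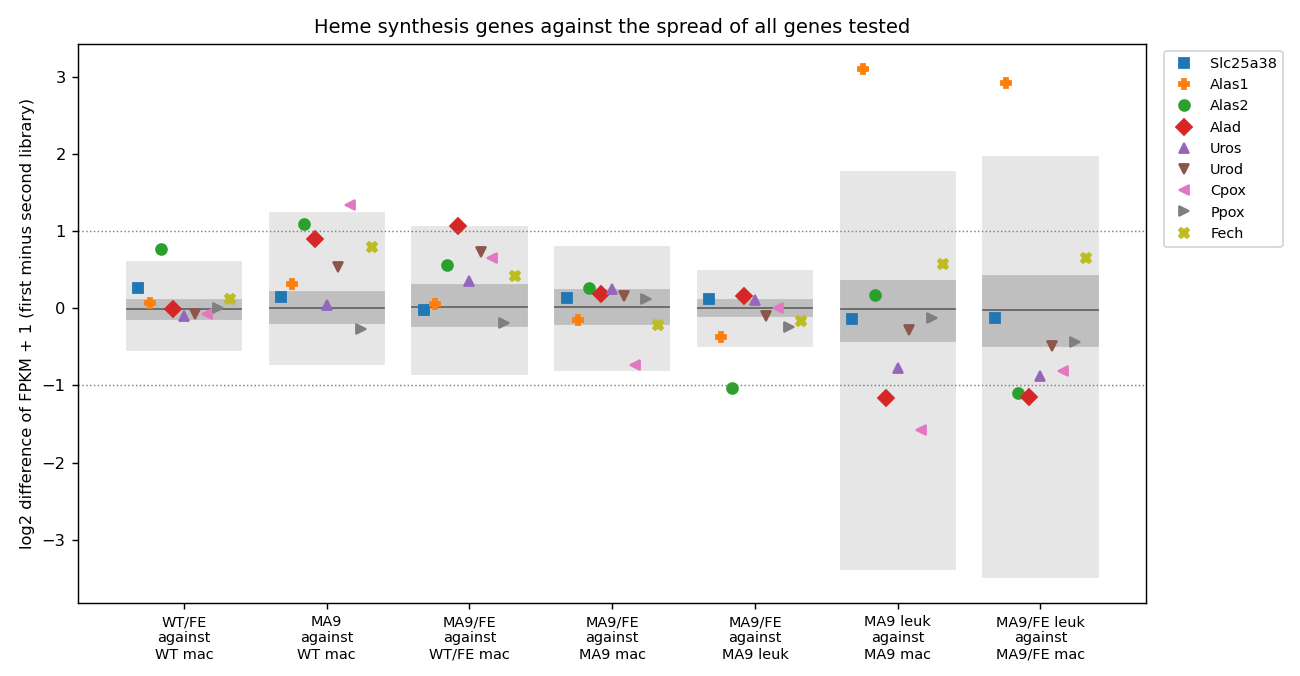
Difference in log2(FPKM + 1) of the 9 genes (symbols) in the 7 pairs of libraries (horizontal axis), on top of the distribution over all genes tested, with the median as a line, the interquartile range in dark grey and the central 95% in light grey. Dotted lines mark 2-fold. Alas2 lies outside the light band with iron in WT macrophages (above) and in leukemia cells (below). Alas1 lies above it in both comparisons of leukemia cells with macrophages. Cpox lies above it in MA9 against WT macrophages, and Alad just above it in MA9/FE against WT/FE macrophages.

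Leukemia cells were set against the macrophages of the same kind of mouse. By the labels the former are from the BM and the latter from the spleen, so kind of cell and tissue cannot be told apart. In MA9 mice 3 of 9 genes were called, where 20.0% of 17044 genes were, and these were Alas1 (log2 difference 3.09), Alad (-1.16) and Cpox (-1.58). In MA9/FE mice again 3 of 9 were called, where 22.8% of 16842 genes were, namely Alas1 (2.92), Alad (-1.14) and Alas2 (-1.09).

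Alas1 was 9.57 times as high by reads in the MA9 leukemia cells as in the MA9 macrophages (8.88 to 10.3), and 8.60 times in the MA9/FE pair (7.91 to 9.36). Of all genes tested, 99.4% and 99.2% lay below it. Fech was the other gene that was higher in both pairs, at 1.52 (1.45 to 1.58) and 1.62 (1.54 to 1.70). The steps between them had ratios below 1. Alad stood at 0.425 (0.373 to 0.484) and 0.431 (0.380 to 0.489), Uros at 0.522 (0.441 to 0.616) and 0.487 (0.415 to 0.571), and Cpox at 0.294 (0.268 to 0.323) and 0.525 (0.473 to 0.581). Nearer to 1 were Urod, at 0.816 (0.732 to 0.908) and 0.6935 (0.621 to 0.774), and Ppox, at 0.913 (0.840 to 0.992) and 0.720 (0.660 to 0.786). Slc25a38 stood at 0.899 (0.812 to 0.995) and 0.914 (0.827 to 1.009), so that the second interval held 1. Alas2 did not differ beyond counting error in the MA9 pair, at 1.16 (0.940 to 1.43), and was lower in the MA9/FE pair, at 0.364 (0.276 to 0.475).

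A limma fit over these 4 libraries, with kind of cell and iron as additive terms and 1 residual degree of freedom, called 5 of the 9, where 6413 of 16291 genes (39.4%) were called. The spread in this fit is how far the difference between the kinds of cell changed with iron, not the spread between mice. It was drawn toward that of all genes, with a prior of 4.365 degrees of freedom. Alas1 was higher by 3.02 on the log2 scale (SE 0.15, Benjamini-Hochberg adjusted p = 0.000121) and Fech by 0.63 (SE 0.15, adjusted p = 0.0225). Lower in the leukemia cells were Alad (-1.14, SE 0.15, limma adjusted p = 0.00291), Uros (-0.81, SE 0.15, adjusted p = 0.00977) and Cpox (-1.18, SE 0.22, adjusted p = 0.0101). Each of the 5 went the same way in both pairs. Alas2, Urod, Ppox and Slc25a38 did not pass. With no minimum of reads Alas1, Alad and Uros passed, and the limma adjusted p was 0.109 for Cpox and 0.0592 for Fech. With a pseudocount of 0.1 Fech alone was lost (0.0663).

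**Figure D4:**
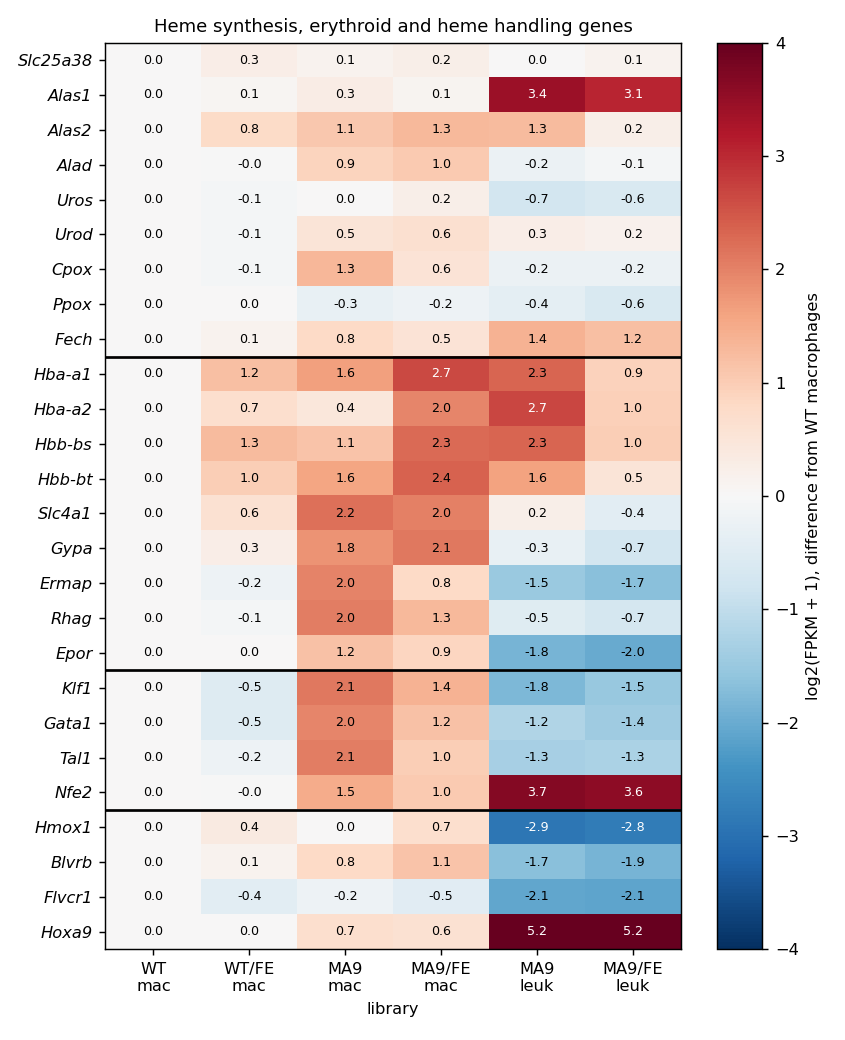
Difference in log2(FPKM + 1) from WT macrophages (colour and printed value) for the 9 heme synthesis genes, and for erythroid genes, erythroid regulators, and heme breakdown and export genes with Hoxa9 (blocks of rows, top to bottom), in the 6 libraries (columns). Alas2 and the globins share their highest column, MA9/FE macrophages, except Hba-a2 and Hbb-bs, whose highest column is MA9 leukemia cells, while Klf1, Gata1 and Tal1 are highest in MA9 macrophages and below WT in both leukemia libraries.

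Transcripts of erythroid cells also differed between the libraries. The 13 erythroid markers found in the files summed to 102 FPKM (WT), 211 (WT/FE), 314 (MA9) and 524 (MA9/FE) in macrophages, and to 426 (MA9) and 163 (MA9/FE) in leukemia cells. None of the 13 was at 0 in any library, and Ahsp was not analysed here. From highest to lowest, the libraries stood in the same order by this sum as by the level of Alas2. Several neighbours in that order did not differ in Alas2 beyond counting error. The median over the 13 markers gave another order. It was 2.89 FPKM (WT), 3.27 (WT/FE), 11.5 (MA9) and 7.94 (MA9/FE) in macrophages, and 0.596 (MA9) and 0.2395 (MA9/FE) in leukemia cells, the lowest of the 6 libraries. In MA9 macrophages 11 of the 13 were called higher than in WT, where 3.79% of all genes were. In MA9/FE over WT/FE 10 of 13 were called higher, where 2.93% of all genes were. With iron, 8 of the 13 were above 0 on the log2 scale and 5 below in WT macrophages. In MA9 macrophages 5 were above 0 with iron and 8 below, and in leukemia cells 1 was above and 12 below. The part of these cells in the values of Alas2, Alad, Cpox and the other genes was not tested.

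The globins carried most of that sum. Hba-a1 was at 32.6 FPKM (WT), 75.6 (WT/FE), 103 (MA9) and 210 (MA9/FE) in macrophages, and at 169 (MA9) and 62.1 (MA9/FE) in leukemia cells, and Hbb-bs at 37.1, 90.8, 83.4 and 181 FPKM in the same macrophages and at 190 and 74.3 FPKM in the leukemia cells. Copies of the globin genes are nearly identical, so the split between them is uncertain. With iron, Hba-a1 stood at a ratio of reads of 2.31 in WT macrophages (2.08 to 2.57), 2.08 in MA9 macrophages (1.95 to 2.22) and 0.367 in leukemia cells (0.340 to 0.397), beside 2.19, 1.25 and 0.381 for Alas2.

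The nuclear regulators of red cells followed another order. Klf1 was at 5.06 FPKM (WT), 3.27 (WT/FE), 24.91 (MA9) and 15.03 (MA9/FE) in macrophages, and at 0.756 (MA9) and 1.10 (MA9/FE) in leukemia cells. Gata1 was at 2.21, 1.22, 11.5 and 6.30 FPKM in the macrophages and at 0.384 and 0.207 FPKM in the leukemia cells. Cpox had its highest levels in the same 2 libraries as these genes, in the same order. In the MA9 leukemia cells both regulators were lower than in any macrophage library, while the levels of Hba-a1 and Alas2 there were exceeded only in the MA9/FE macrophages.

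Of the 12 regulators of the pathway listed, 5 were called higher in MA9 than in WT macrophages (Klf1, Gata1, Tal1, Nfe2 and Zfpm1). Of all genes 3.79% were. In MA9/FE over WT/FE 4 were called higher, where 2.93% of all genes were. Klf1 and Gata1 are also among the erythroid markers counted above. Nfe2, a partner of small maf proteins in red cells and platelets, was at 3.79 FPKM (WT), 3.71 (WT/FE), 12.3 (MA9) and 8.91 (MA9/FE) in macrophages, and at 59.8 (MA9) and 56.4 (MA9/FE) in leukemia cells. Like Alas1, it was far higher in both leukemia libraries. Bach1, Ireb2 and Eif2ak1, which sense heme or iron, were called in none of the 7 pairs. Bach1, a repressor that heme inactivates, was at 10.2 to 16.4 FPKM, Ireb2, an iron regulatory protein, at 9.94 to 11.8 FPKM, and Eif2ak1, the kinase that slows translation when heme is short, at 12.3 to 13.6 FPKM over the 6 libraries.

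Genes that assist the pathway were counted from a list of 16, and 0 of them were called in any of the 7 pairs on the log2(FPKM + 1) scale. In MA9 over WT macrophages 12 of the 16 were above 0, at a median log2 difference of 0.19, and in MA9/FE over WT/FE 14 of 16, at a median of 0.40. The mitochondrial iron importer Slc25a37 was at 24.6 to 35.5 FPKM and its relative Slc25a28 at 29.9 to 42.8 FPKM.

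Of 11 genes that take up, carry or break down heme, 0 were called with iron in the 3 pairs on the log2(FPKM + 1) scale. By the ratio of reads of at least 2, the scavenger receptor genes Cd163, at 2.16 (1.93 to 2.43), and Lrp1, at 2.06 (1.97 to 2.16), were called higher in WT macrophages. Cd163 was also called in MA9 macrophages, at 2.15 (1.89 to 2.45), where 9.85% of all genes were called by that rule. In the leukemia cells 4 of the 11 were called lower than in the macrophages in each kind of mouse, where 12.6% (MA9) and 13.2% (MA9/FE) of all genes were called lower. Hmox1, which opens the heme ring, was at 104 FPKM (WT), 133 (WT/FE), 104 (MA9) and 167 (MA9/FE) in macrophages, and at 13.0 (MA9) and 14.2 (MA9/FE) in leukemia cells. Blvrb, which acts on biliverdin, was at 16.98, 18.79, 29.96 and 38.70 FPKM in the macrophages and at 4.59 and 3.97 FPKM in the leukemia cells. Flvcr1, a heme exporter, was at 11.0 to 15.6 FPKM in the macrophages and at 2.88 and 2.87 FPKM in the leukemia cells.

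Among 10973 genes compared, those with the profile most like Alas1 over the 6 libraries were Pxylp1, Tnnt1, Dmc1, Rab27a and Plscr3, by the root mean square difference of centred log2(FPKM + 1), which was 0.109 for Pxylp1 and 0.139 for Plscr3. Rab27a, for example, was at 6.17 to 9.13 FPKM in the macrophages and at 67.4 and 63.5 FPKM in the leukemia cells. With 4 libraries of one kind of cell and 2 of the other, a likeness of this sort mostly tells which genes separate the kinds of cell. For Alas2 the 5 most alike were Pecr, Tbxas1, Oas1g, C4b and Sarnp, at 0.252 to 0.329, a looser likeness than for Alas1. The 4 globins, looked up for their role, were at 0.331 (Hbb-bt), 0.403 (Hbb-bs), 0.434 (Hba-a1) and 0.657 (Hba-a2).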

How the data were processed

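Total RNA of sorted macrophages and leukemia cells was sequenced (Illumina NovaSeq), and a service provider made the values. The authors deposited FPKM per gene by Ensembl identifier. The submitters' processing notes list Bowtie2 2.2.5, RSEM and mm10. The annotation and the counting options are not given in the sources used here. Reads were recovered from the deposited FPKM with exon lengths of GENCODE M21 (tolerance 0.05 reads).

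Libraries were compared in 7 pairs on log2(FPKM + 1) after TMM scaling (coded by hand, trims 30% and 5%) for genes with at least 10 reads in either library, without a test. Exact 95% intervals of read ratios are beside them. limma 3.58.1 was fitted, for genes that reached 10 reads in 2 or more libraries, to the terms iron, leukemia and kind of cell, with Benjamini-Hochberg adjustment at 0.05. The steps were tested on simulated data. Python 3.11.15, scipy 1.17.1 and R 4.3.3 were used.

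The 9 genes were taken by name, but this pathway, its members, the gene lists and the tests were chosen with earlier results of these data known. All 9 genes are named in every comparison of 2 libraries, and listed genes where they are markers or reached 2-fold with at least 100 reads. Bach1, Ireb2, Eif2ak1, Slc25a37, Slc25a28, Cd163 and Lrp1 were named after their values were seen. A result on 1 listed gene is not reported here. The alternatives were other scalings, other minimum reads, a pseudocount of 0.1, reads in place of the fold, removal of the trend on exon length, and leaving out each pair.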

Additional observations from a re-analysis of the deposited data

Results flagged for a closer look

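The effect of iron went in opposite directions, beyond counting error, in 5 pairs of contrasts among the 9 genes, and the difference itself was not tested, because each contrast is 1 library against 1. Alas2 stood at an FE over PBS ratio of reads of 2.19 in WT macrophages and 1.25 in MA9 macrophages, against 0.381 in leukemia cells. Fech stood at 1.10 in WT macrophages, against 0.853 in MA9 macrophages and 0.883 in leukemia cells. Ppox stood at 1.09 in MA9 macrophages, against 0.837 in leukemia cells. The WT and MA9 macrophage values share no library with those of the leukemia cells. The summed erythroid markers went in the same directions as Alas2, as given above. In MA9 macrophages, though, 8 of the 13 markers were below 0 with iron.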

How the results depend on the processing

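The labels carry no replicate numbers, and each block of the iron fit is 1 FE library with its PBS counterpart (WT macrophages, MA9 macrophages or leukemia cells). Without the block (limma, no replicate block) 0 of the 9 genes and 0 of all genes passed, with 38 genes at an unadjusted p under 0.05. Leaving out each pair in turn called 0 of the 9 genes each time, and 2 genes in all without the leukemia cell pair. The count of members past 2-fold went from 0 to 1 (Alas2) for WT/FE against WT macrophages with a pseudocount of 0.1 and by the ratio of reads, and from 1 to 0 for MA9/FE against WT/FE macrophages with the length trend removed. In the limma fit for leukemia it went from 1 to 0 with scaling by the median of ratios, no minimum of reads or a pseudocount of 0.1, and in that for kind of cell from 5 to 3 with no minimum of reads. Of 441 member differences under other settings, 431 moved by less than counting error, 10 moved by more (6 with the length trend removed and 4 with a pseudocount of 0.1), and 0 of the called ones changed sign. Over all genes, the number called moved from 213 to between 116 (at least 50 reads) and 849 (ratio of reads) for WT/FE against WT macrophages, from 795 to between 642 and 2140 for MA9 against WT, from 758 to between 531 and 2241 for MA9/FE against WT/FE, from 406 to between 234 and 1626 for MA9/FE against MA9 macrophages, from 133 to between 60 and 691 in the leukemia cells, and from 3407 to between 2980 and 6023 and from 3832 to between 3354 and 6692 for leukemia cells against macrophages. Counting error is small at this depth except for Alas2, and with 1 library per condition the spread between mice was not measured. The cause of each move was not tested.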
